A study of Mus musculus with 24 samples.

Results

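The 7 genes described here encode 6 enzymes that build cholesterol (Hmgcs1, Idi1, Sqle, Lss, Cyp51 and Dhcr7) and Insig1, a membrane protein that holds the pathway in check. They were taken by symbol from a table of 22943 genes, and all 7 symbols were present. All 7 passed the filter on low values, at least 1 RPKM (read density per kilobase of gene, scaled to depth) in at least 4 libraries, as did 14284 genes of the table. They lie on chromosomes 13 (Hmgcs1 and Idi1), 15 (Sqle), 10 (Lss), 5 (Cyp51 and Insig1) and 7 (Dhcr7) of the build GRCm38. None of the 7 encodes a receptor for cholesterol uptake. Genes of cholesterol uptake and transport are given as related genes further on.

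RNA was measured by bulk sequencing of uteri from female C57bl/6 mice aged 21 days, in 24 libraries. The floxed groups were Ctcf-f/f littermates without Cre, and the knockout groups were PgreCre+;Ctcf-f/f mice, in which a Cre recombinase from the progesterone receptor gene Pgr deletes floxed Ctcf, which encodes a chromatin loop factor. Every mouse received a subcutaneous injection of 0.05 ml of sesame oil 6 h before the end of treatment, either as vehicle alone (8 floxed and 8 knockout libraries) or with 0.5 mg of progesterone (4 floxed and 4 knockout libraries). Sequencing was in 2 batches, a mixed batch with 4 libraries per group and a vehicle-only batch with 4 more vehicle libraries per genotype. Only cells that have expressed Pgr lose Ctcf in this model, and the controls lack the Cre allele, so loss of Ctcf and presence of Cre cannot be told apart. Whether libraries are separate animals is not stated, and p-values therefore cover only the spread between libraries, which may be technical.

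Cholesterol is made from acetyl-CoA. HMGCS1 makes an early intermediate on the way to mevalonate. IDI1 then makes a building block of the isoprenoid chain that becomes squalene, SQLE oxidises squalene, LSS closes the sterol rings to give lanosterol, CYP51 removes a methyl group from it, and DHCR7 performs a final reduction. When membranes are low in sterol, the escort protein SCAP carries the SREBP transcription factors, encoded by Srebf1 and Srebf2, to the Golgi, where they are cut and released to switch on these enzymes together. INSIG1 keeps SCAP in the endoplasmic reticulum when sterol is plentiful, and its own gene is a target of the SREBP proteins. Growing uterine tissue needs cholesterol for new membranes.

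RefSeq promoters were matched for 6 of the 7 genes (build GRCm38.p6), all but Sqle. Printed here are 200 bases, from 250 to 51 bases before the start site on which each promoter window is set, of the first enzyme of the group, of Lss, whose RNA differed between genotypes, and of the regulator Insig1. All 3 lie on the plus strand. For Hmgcs1 and Insig1 that site is the start of the RefSeq gene, and for Lss it lies 40 bases inside the gene, so that the printed bases run from 210 to 11 before the gene's start. Capitals mark the letters TCACNCCAC, a form of the sterol regulatory element that SREBP proteins bind, and CCAAT, or ATTGG where it lies on the other strand, the core of the site of the partner factor NF-Y.
Hmgcs1, chr13:119690101-119690300: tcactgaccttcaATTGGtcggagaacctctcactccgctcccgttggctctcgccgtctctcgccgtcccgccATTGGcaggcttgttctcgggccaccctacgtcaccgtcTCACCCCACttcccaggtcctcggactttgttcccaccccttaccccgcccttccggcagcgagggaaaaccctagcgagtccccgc
Lss, chr10:76531355-76531554: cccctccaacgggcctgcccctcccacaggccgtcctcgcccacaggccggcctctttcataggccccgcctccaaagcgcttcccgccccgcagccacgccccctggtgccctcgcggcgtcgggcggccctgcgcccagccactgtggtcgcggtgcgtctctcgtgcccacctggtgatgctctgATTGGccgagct
Insig1, chr5:28071162-28071361: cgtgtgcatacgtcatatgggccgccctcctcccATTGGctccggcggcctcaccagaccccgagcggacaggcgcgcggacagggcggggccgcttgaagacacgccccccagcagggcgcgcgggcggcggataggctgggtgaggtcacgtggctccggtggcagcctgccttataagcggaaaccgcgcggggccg
Both motifs were searched on both strands of windows of 300 bases. TCACNCCAC was in 1 of the 6 matched promoters, that of Hmgcs1, as TCACCCCAC with its first base 137 bases before the start. It was in 1.24% of 32851 promoters of the same length, and in a promoter of 1.44% of their 27025 genes. CCAAT was in a promoter of all 6 matched genes, in a promoter of 41.1% of all 27025 genes and in 37.4% of all promoters. Such matches describe letters, not binding sites.

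Depth, estimated from the steps between low values, was 29900000 to 100600000 reads per library, and 1 read per kilobase was worth 0.00994 to 0.0335 RPKM, far below any value of the 7 genes. Ctcf, the deleted gene, was 9.04 to 13.1 RPKM in the 12 knockout libraries and 22.99 to 30.6 RPKM in the 12 floxed libraries, without overlap. The tissue makeup of the libraries was not even. Summed fat markers (8 genes) ran from 2.44 to 1287 RPKM over the vehicle libraries, oviduct markers (5 genes) reached 417 RPKM in floxed progesterone library 7, and squamous epithelium markers (8 genes) reached 102 RPKM in knockout vehicle library 9. Of 7 markers of ovary and other steroid-making cells, 5 stayed under 1 RPKM in every library, among them Cyp17a1, Cyp19a1 and Hsd3b1, and Cyp11a1 and Inha reached it. In bulk tissue, fewer cells of a type and less RNA per cell cannot be told apart.

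All 7 genes were detected in every library, and their order by mean RPKM was nearly fixed. Hmgcs1, Sqle and Insig1 came first in all 4 groups, in that order, Cyp51 and Dhcr7 followed, Lss was sixth and Idi1 lowest. Neighbours at the bottom were well apart: Dhcr7 was above Lss in 8 of 8 floxed vehicle libraries, by 1.68 to 2.69 times, and Lss above Idi1 in 8 of 8, by 1.77 to 3.97 times. Higher up they were not. In floxed vehicle libraries Sqle was above Insig1 in 4 of 8 and Cyp51 above Dhcr7 in 4 of 8. Within the floxed vehicle group the highest library exceeded the lowest 5.58 times for Sqle, 5.08 times for Cyp51 and 4.78 times for Idi1, but 2.16 times for Insig1 and 1.88 times for Dhcr7. The plot of levels by group shows every value.

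**Figure D1:**
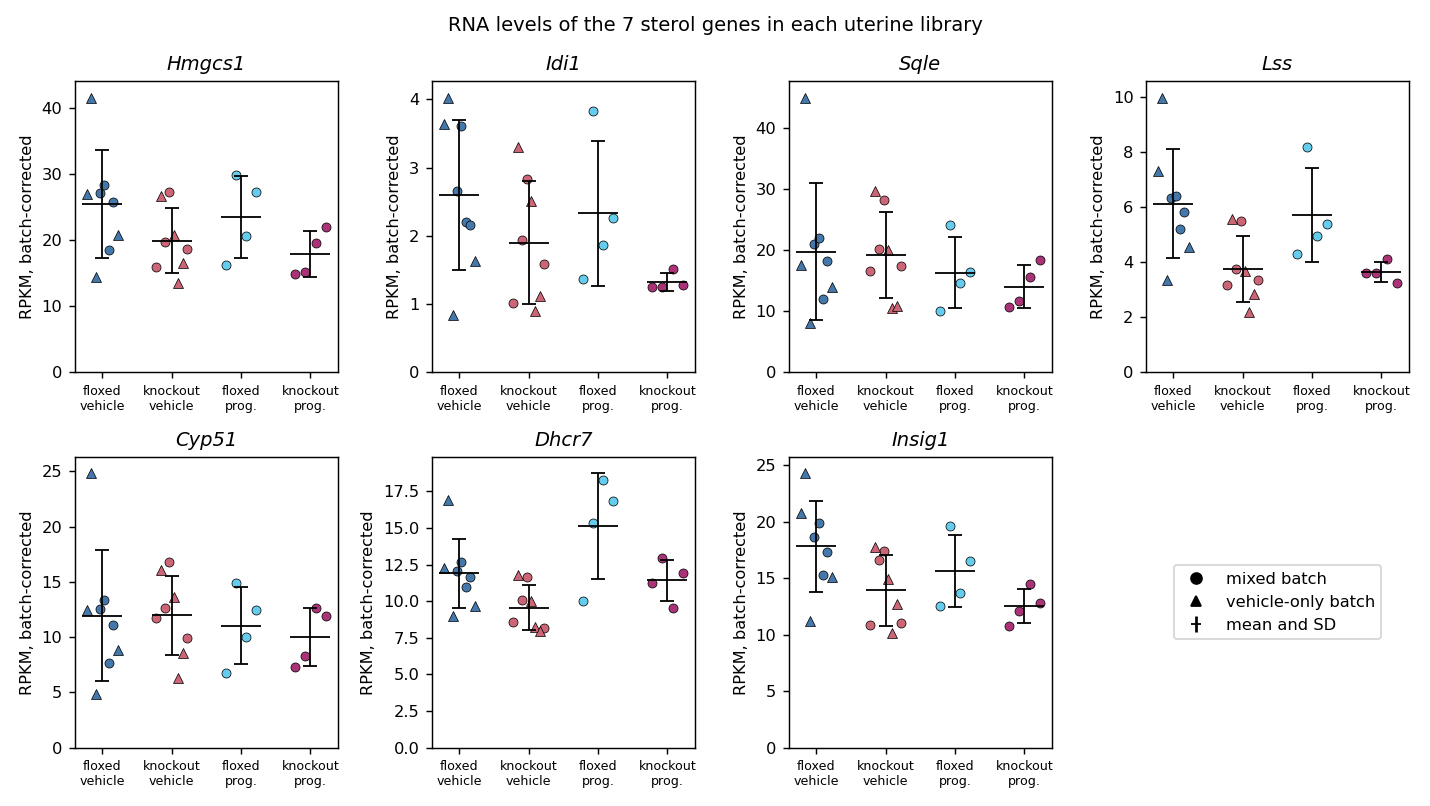
RNA levels (batch-corrected RPKM, linear axis from 0) of the 7 genes in each library. Circles are libraries of the mixed batch, triangles those of the vehicle-only batch, and horizontal and vertical bars are group mean and SD (n = 8, 8, 4 and 4). For Lss, all 4 knockout progesterone libraries (3.25 to 4.11 RPKM) lie below the lowest floxed progesterone library (4.31 RPKM), a difference that did not pass (limma adjusted p = 0.141). The other genes overlap between genotypes.

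The first comparison asked whether the 7 genes differ between knockout and floxed uteri without hormone. Lss was lower in knockouts, and no other member passed the test, although 5 of the 7 fold changes were negative and 2 positive. The share of all tested genes called in this comparison was 24.6%, with 11.5% called lower, so 1 call among 7 genes is near the background. The count rested on single libraries: without floxed vehicle library 1a, 3 of the 7 were called (Lss, Dhcr7 and Insig1), and without knockout vehicle library 11a, 2 (Lss and Insig1). The median log2 fold change was −0.32 over the 7 genes and −0.01 over all tested genes. Because the 7 genes varied together between libraries, as given further on, their signs are not 7 separate results in any comparison. Lss, Dhcr7 and Insig1 had an unadjusted p under 0.05. With the library numbers fitted as a block, 4 of the 7 were called (Lss, Hmgcs1, Dhcr7 and Insig1), and Sqle and Cyp51 were at −0.50 and −0.52. Whether the numbers pair libraries is not settled.

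Hmgcs1 and Idi1 act before squalene. Hmgcs1 ran from 14.4 to 41.7 RPKM with a median of 26.4 in floxed vehicle libraries and from 13.5 to 27.4 RPKM with a median of 19.2 in knockout vehicle libraries. The knockout range lay almost wholly within the floxed range, and floxed library 12 alone stood above it by a wide margin. The means were 25.5 ± 8.19 and 19.9 ± 4.95 RPKM (SD, n = 8 each), and the log2 fold change of −0.32 ± 0.18 (SE, 95% interval −0.70 to 0.06) did not pass (limma adjusted p = 0.222). Idi1 ran from 0.843 to 4.03 RPKM with a median of 2.42 in floxed and from 0.901 to 3.31 RPKM with a median of 1.76 in knockout vehicle libraries. Its groups overlapped over nearly their whole length, with a log2 fold change of −0.36 ± 0.25 (−0.88 to 0.15, adjusted p = 0.317). A near-identical copy, Idi1-ps1, is listed in the table too, so the share of reads assigned to Idi1 is uncertain.

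Sqle, Lss, Cyp51 and Dhcr7 act from squalene to cholesterol. Lss was between 3.34 and 9.98 RPKM with a median of 6.07 in floxed and between 2.20 and 5.57 RPKM with a median of 3.52 in knockout vehicle libraries. The groups overlapped: 5 of 8 knockout libraries lay above the lowest floxed library, 1a (3.34 RPKM), and 3 of 8 floxed libraries lay below the highest knockout library, 11a (5.57 RPKM). Its means were 6.12 ± 1.98 and 3.75 ± 1.20 RPKM (SD, n = 8 each), and its log2 fold change was −0.63 ± 0.18 (SE, −1.01 to −0.25, adjusted p = 0.0127). The difference was −0.56 within the mixed batch and −0.70 within the vehicle-only batch, on the same log2 scale. Without any 1 library it ran from −0.74 to −0.51, and the call was kept in 32 of 32 other settings and sets of libraries. Lss spans 76531588 to 76557138 of chromosome 10 (GRCm38), and a gene on its other strand, 4930483K19Rik, reached 0.154 RPKM at most.

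Sqle ran from 8.07 to 45.0 RPKM with a median of 17.9 in floxed and from 10.6 to 29.6 RPKM with a median of 18.7 in knockout vehicle libraries. Cyp51 ran from 4.89 to 24.8 RPKM with a median of 11.8 in floxed and from 6.30 to 16.8 RPKM with a median of 12.2 in knockout vehicle libraries. For both genes the floxed range enclosed the knockout range, through floxed libraries 12 and 1a. Their log2 fold changes were 0.04 ± 0.28 for Sqle (−0.54 to 0.61, adjusted p = 0.945) and 0.07 ± 0.25 for Cyp51 (−0.45 to 0.59, adjusted p = 0.877). These intervals are wide, and changes of any size within them are not excluded. Within batches, the values had opposite signs: 0.17 and −0.10 for Sqle and 0.19 and −0.05 for Cyp51, in the mixed and the vehicle-only batch. Without floxed vehicle library 1a both fold changes turned below 0, to −0.12 for Sqle and −0.085 for Cyp51, and so they did without floxed library 3 or knockout library 11a or 12. Cyp51 overlaps Akap9 on the other strand, which reached 13.6 RPKM, and the strand setting of the counts was not given in the sources used here. Hmgcs1 and Idi1 likewise overlap Gm48342 and Gm48574 on the other strand, not analysed here.

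Dhcr7, the last enzyme, ran from 8.99 to 16.9 RPKM with a median of 11.8 in floxed and from 7.96 to 11.8 RPKM with a median of 9.31 in knockout vehicle libraries. The upper end of the knockout group reached the middle of the floxed group. Its log2 fold change of −0.29 ± 0.13 (−0.55 to −0.03) missed the threshold (adjusted p = 0.0936). It passed without floxed vehicle library 1a (−0.35, adjusted p = 0.0491). With any 1 library left out it ran from −0.35 to −0.21, with adjusted p of up to 0.195. Insig1, the brake of the pathway, ran from 11.2 to 24.3 RPKM with a median of 18.0 in floxed and from 10.2 to 17.8 RPKM with a median of 13.8 in knockout vehicle libraries. Floxed libraries 12, 10, 2 and 1b lay above every knockout library, and floxed library 1a below most. The log2 fold change of Insig1 was −0.34 ± 0.14 (−0.64 to −0.04, adjusted p = 0.0898). It passed without floxed vehicle library 1a (−0.43, adjusted p = 0.0216) or without knockout vehicle library 11a (−0.40, adjusted p = 0.0493). With any 1 library left out it ran from −0.43 to −0.27, with adjusted p of up to 0.179. Both genes differed by like amounts in the 2 batches: −0.30 and −0.29 for Dhcr7, and −0.36 and −0.32 for Insig1.

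Markers of other cells moved with genotype in the same libraries, where 13.1% of tested genes were called higher and 11.5% lower. Summed leukocyte markers (9 genes) were 71.1 to 107 RPKM in floxed and 138 to 222 RPKM in knockout vehicle libraries, and 7 of 7 tested markers were called higher. Summed simple epithelium markers (6 genes) were 344 to 544 RPKM in floxed and 233 to 355 RPKM in knockout vehicle libraries, and 5 of 6 were called lower. The remaining marker, Epcam, went the other way and did not pass (0.30, adjusted p = 0.0545). Of 6 stroma markers 2 were lower, Pdgfra (−0.64, adjusted p = 7.66e-05) and Thy1 (−0.65, adjusted p = 2.5e-08), while the list's sum was 1200 to 1552 RPKM in floxed and 1179 to 2198 RPKM in knockout vehicle libraries. Of the steroid-making markers Cyp11a1, which makes the first cut in cholesterol on the way to steroid hormones, was low in all libraries but higher in knockouts, at 0.179 to 0.333 RPKM in floxed and 0.751 to 1.45 RPKM in knockout vehicle libraries (1.23, adjusted p = 4.19e-09), while Inha did not pass (−0.20, adjusted p = 0.315). Epcam, Pdgfra, Thy1, Cyp11a1 and Inha are named after their values were seen. No smooth muscle, fat or oviduct marker was called, with 1 oviduct marker at an unadjusted p under 0.05, and of 6 tested squamous markers 1 was higher and 1 lower. The part of these markers in the values of Lss, Dhcr7 and Insig1 was not tested.

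The second comparison asked whether the genes differ between genotypes 6 h after progesterone. All 7 fold changes were negative and none passed, where 19.4% of tested genes were called and 7.06% were called lower. The median was −0.37 over the 7 genes and 0.03 over all tested genes. As the 7 genes varied together, these signs and this median are not 7 separate results. By unadjusted p under 0.05 there was 1 gene, Lss.

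Lss was 4.31, 8.17, 4.95 and 5.37 RPKM in floxed libraries 1, 2, 7 and 9, and 3.58, 3.60, 4.11 and 3.25 RPKM in knockout libraries 4, 5, 6 and 8. All 4 knockout libraries were below every floxed library, without overlap. For this gene and others described as without overlap, the share of all tested genes so separated is not given. The log2 fold change of Lss was −0.55 ± 0.26 (SE, −1.08 to −0.02, adjusted p = 0.141). The same value passed when the mixed batch, which holds all these libraries, was fitted alone (adjusted p = 0.0292). With any 1 library left out it ran from −0.66 to −0.38, with adjusted p of 0.0868 to 0.384. Idi1 was 1.36, 3.83, 1.86 and 2.26 RPKM in the floxed libraries in the same order, and 1.25, 1.24, 1.51 and 1.27 RPKM in the knockout libraries. Knockout library 6 was the only one to reach above the lowest floxed library, and the difference of −0.57 ± 0.35 did not pass (adjusted p = 0.280).

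Dhcr7 was 10.01, 15.4, 18.3 and 16.8 RPKM in floxed and 11.3, 12.9, 9.54 and 11.96 RPKM in knockout progesterone libraries, in the same orders. Floxed library 1 was low, and the other 3 lay above every knockout library. The difference of −0.37 ± 0.18 did not pass (adjusted p = 0.160), but it did without floxed library 1 (−0.54, adjusted p = 0.0269). With any 1 library left out it ran from −0.54 to −0.26, with adjusted p of up to 0.377. Insig1 was 12.5, 19.6, 13.7 and 16.6 RPKM in floxed and 10.8, 12.1, 14.4 and 12.8 RPKM in knockout libraries. These overlapped, and the difference was −0.29 ± 0.20 (adjusted p = 0.350).

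Hmgcs1 was 16.3, 29.9, 20.7 and 27.3 RPKM in floxed and 14.9, 15.2, 19.6 and 21.95 RPKM in knockout progesterone libraries (−0.37 ± 0.26, adjusted p = 0.362). Its groups overlapped, with floxed library 1 again among the low ones. Sqle was 10.1, 24.05, 14.6 and 16.4 RPKM in floxed and 10.6, 11.6, 15.5 and 18.3 RPKM in knockout libraries (−0.18 ± 0.39, adjusted p = 0.793). Cyp51 was 6.76, 14.9, 9.98 and 12.4 RPKM in floxed and 7.30, 8.34, 12.6 and 11.9 RPKM in knockout libraries (−0.11 ± 0.35, adjusted p = 0.862). The SE of Sqle and Cyp51 exceeded the difference itself. Leukocyte markers were higher in knockouts here too, with sums of 72.4 to 117 RPKM against 112 to 250 RPKM and 7 of 7 tested markers called higher. Simple epithelium sums were 333 to 522 RPKM in floxed and 325 to 484 RPKM in knockout libraries. Of these markers 1 was called higher, Epcam (0.88, adjusted p = 0.000368), and 0 lower. Pdgfra was lower in knockouts (−0.88, adjusted p = 0.000197), the 1 of 6 stroma markers called, and Cyp11a1 higher (1.18, adjusted p = 2.48e-06), at 0.132 to 0.223 RPKM in floxed and 0.70 to 1.31 RPKM in knockout libraries. The part of these markers in the values of the 7 genes was not tested. The 2 genotype comparisons share no libraries.

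The next comparisons asked what 6 h of progesterone did to the genes in each genotype. No member passed in either, with an unadjusted p under 0.05 for 0 of 7 in each, where 23% of tested genes were called in floxed uteri (7.84% higher and 15.1% lower) and 8.67% in knockout uteri (4% higher and 4.66% lower). In floxed uteri 6 of 7 fold changes were negative, with a median of −0.12 against −0.06 over all tested genes. In knockouts 6 of 7 were negative too, with a median of −0.16 against −0.02. Both use the vehicle libraries of the first comparison.

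Dhcr7 was the gene with a positive value in both genotypes. Floxed progesterone libraries 2, 7 and 9 (15.4, 18.3 and 16.8 RPKM) exceeded 7 of 8 floxed vehicle libraries, which apart from library 12 stayed at or below 12.6 RPKM. Floxed progesterone library 1 (10.01 RPKM) lay within the vehicle range. The means were 11.9 ± 2.39 RPKM (SD, n = 8) after vehicle and 15.1 ± 3.61 RPKM (SD, n = 4) after progesterone, a log2 fold change of 0.31 ± 0.17 (−0.03 to 0.65) that did not pass (adjusted p = 0.188). Without floxed progesterone library 1 it was 0.49 and passed (adjusted p = 0.0311). With any 1 library left out it ran from 0.21 to 0.49, with adjusted p of up to 0.454. In knockouts it was 0.24 (−0.10 to 0.58, adjusted p = 0.431).

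The other 6 genes had fold changes from −0.26 (Sqle) to −0.10 (Cyp51) in floxed uteri and from −0.47 (Sqle) to −0.04 (Lss) in knockouts. The Sqle interval was −1.02 to 0.50 in floxed uteri (adjusted p = 0.664) and −1.23 to 0.28 in knockouts (adjusted p = 0.485). That of Hmgcs1 in floxed uteri was narrower, −0.62 to 0.39 (adjusted p = 0.779), and that of Insig1 was −0.58 to 0.21 (adjusted p = 0.527). In the difference between the responses of knockout and floxed uteri, 2.49% of tested genes were called (1.46% higher and 1.03% lower) and 0 of the 7, with values from −0.22 (Sqle) to 0.08 (Lss) and adjusted p from 0.898 to 0.973. An unadjusted p under 0.05 was found for 0 of 7. The plot of fold changes shows how wide these intervals were.

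**Figure D2:**
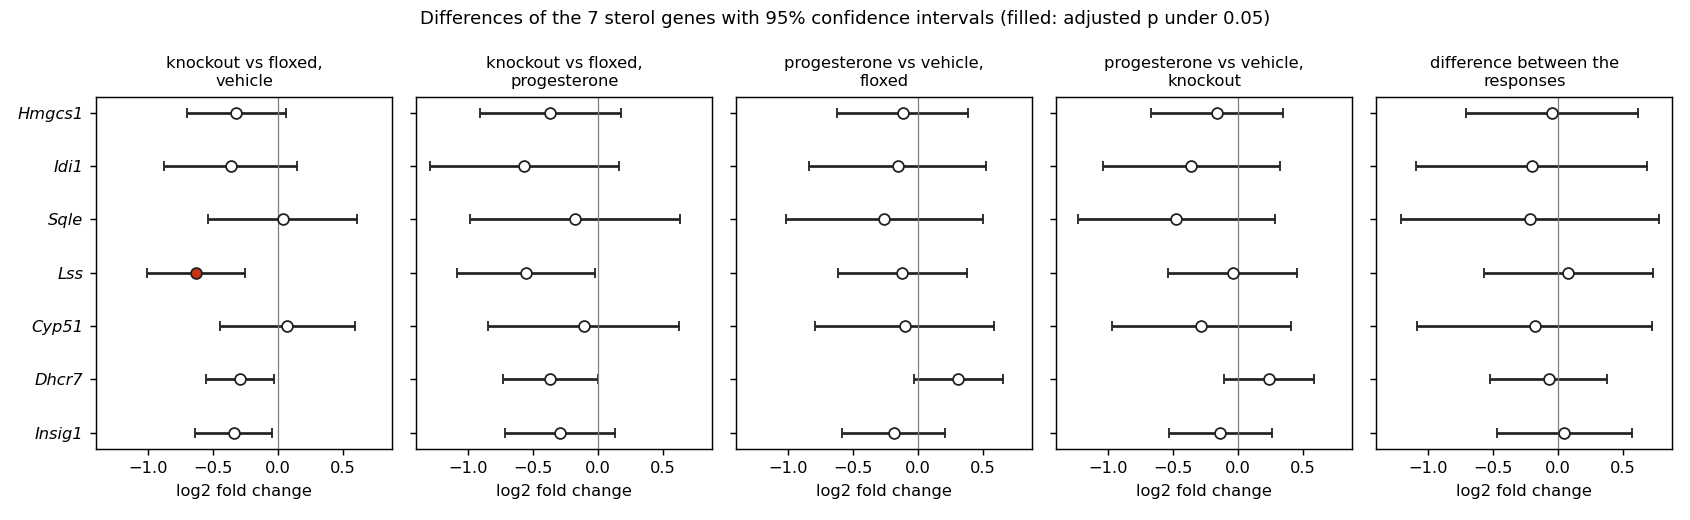
Log2 fold changes of the 7 genes in the 5 comparisons, on 1 shared linear axis, with 95% confidence intervals from the limma fit over all genes. The only filled point is Lss in knockout against floxed uteri after vehicle (−0.63), and open points did not pass an adjusted p of 0.05.

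Libraries of the same group differed widely in the 7 genes. Floxed vehicle library 12 was the highest of its group for all 7 genes and library 1a the lowest for all 7. Both are from the vehicle-only batch, at 57100000 and 40100000 reads, and they had the lowest fat marker sums of the group, 2.93 RPKM in library 12 and 2.44 RPKM in library 1a, against 187 to 1213 RPKM in the other 6. Among knockout vehicle libraries, 11a was highest for 5 genes and 12 for 2, and library 4 was lowest for 6. Among floxed progesterone libraries, 2 was highest for 6 genes and 1 lowest for 7.

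Because the same libraries were high or low for every member, the 7 genes varied together within the vehicle groups. Over the 8 floxed vehicle libraries Hmgcs1 and Cyp51 correlated with Pearson r = 0.996 (exact permutation p = 2.48e-05, adjusted 0.000298 over 12 relations) and Spearman rho = 1. Without libraries 12 and 1a, the 2 farthest from the median, r was 0.994. The weakest of the 6 relations of Hmgcs1 in this group was with Idi1, with r = 0.888 (exact permutation p = 0.00384, adjusted 0.00384), rho = 0.857 (exact permutation p = 0.0107, adjusted 0.0117), and r = 0.718 without those 2 libraries. In the 8 knockout vehicle libraries the relations of Hmgcs1 ran from r = 0.889 with Insig1 (exact permutation p = 0.0030, adjusted 0.00327) to r = 0.983 with Lss (exact permutation p = 0.000248, adjusted 0.000595). Over all 21 pairs the median r was 0.957 in floxed and 0.912 in knockout vehicle libraries, and 0.885 and 0.872 without the 2 farthest libraries of each. Each batch holds 4 libraries per group, too few for a value within batches.

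**Figure D3:**
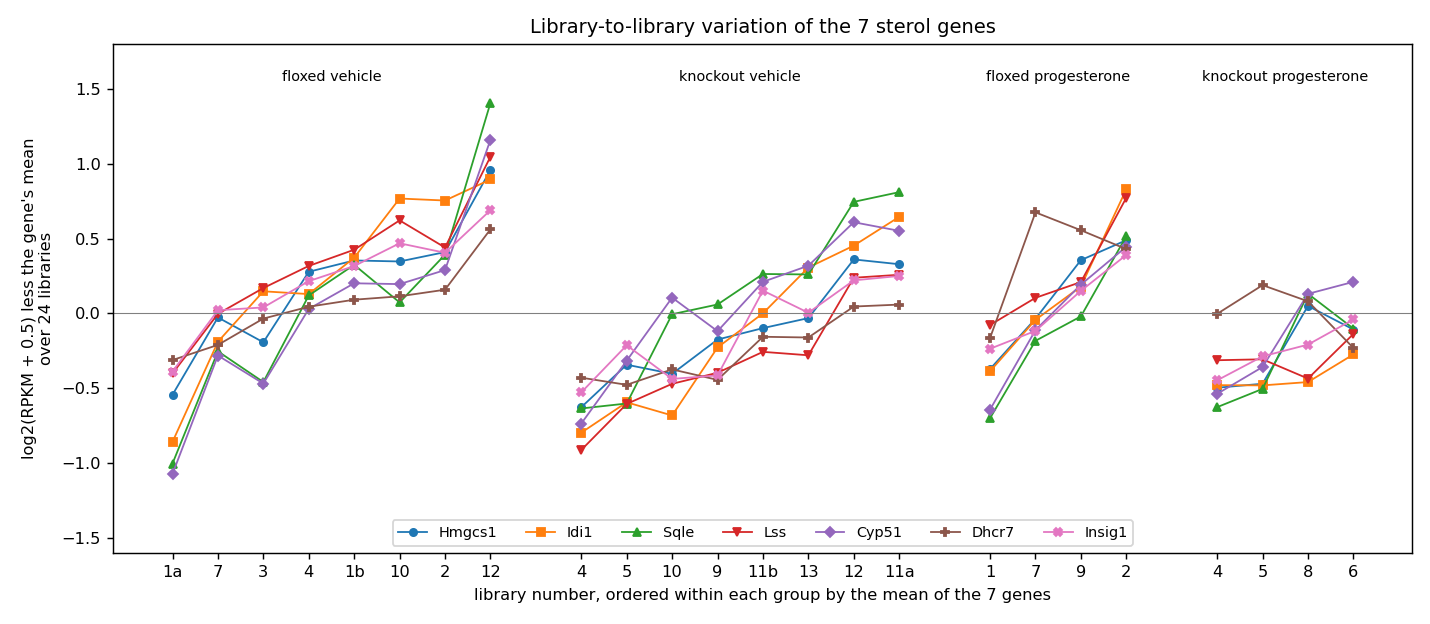
Level of each gene in each library, as log2(RPKM + 0.5) less that gene's mean over the 24 libraries, with libraries ordered within their group by the mean of the 7 genes. Lines join the points of 1 gene within a group, and the ordering itself makes them climb. In the vehicle groups the 7 lines move together but by unlike amounts: over the floxed vehicle libraries Sqle ranged 5.58 times and Dhcr7 1.88 times. Dhcr7 also departs from the others in the progesterone libraries.

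Many other genes shared this variation. Each gene's log2 value was set against the mean of the 7 genes over the 24 libraries, after the mean of its group and batch was taken off, and members, which are part of that mean, had r from 0.81 (Dhcr7) to 0.97. Among 14277 other tested genes the median r was 0.00, and 437 had a higher r than Dhcr7. Among the most alike were the mevalonate pathway gene Mvd (r = 0.96), Eftud2 (0.96), Gtf3c6 (0.95), the squalene synthase gene Fdft1 (0.95), Lrrc59 (0.94), the sterol oxidase gene Msmo1 (0.94) and Clpb (0.94). Without that subtraction the 8 were Idi1-ps1 (0.94), Sf3a1, Mvd, Mvk, Thop1, Tmem97, Hsd17b7 and Gtf2f1 (0.92). Of 14 other sterol enzymes the median r was 0.81, with Ggps1 lowest at −0.07. Srebf2, which encodes the SREBP protein best known for cholesterol genes, had r = 0.94, Srebf1 0.33 and Insig2, a relative of Insig1, −0.67. The median r was −0.30 over 10 uptake and transport genes, with Mylip lowest at −0.83. Over 8 efflux and storage genes it was −0.47, with Cyp27a1 lowest at −0.93. These points share library, depth and tissue makeup, and no p is given.

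Of 14 other enzymes of cholesterol synthesis, 1 was higher and 1 lower in knockouts after vehicle, where 13.1% of tested genes were called higher and 11.5% lower. The list's median was −0.21. The called genes were Sc5d, a desaturase of the last steps, at 0.43 ± 0.13 (adjusted p = 0.0178) and Fdft1, the enzyme before Sqle, at −0.47 ± 0.16 (adjusted p = 0.0337). The Sc5d call was lost in 2 of 32 other settings. In 1, without the 5 libraries with oviduct or squamous markers, Sc5d was at 0.39 (adjusted p = 0.101), and in the other its adjusted p was 0.405. The lowest Sc5d value in any setting was 0.16. The Fdft1 call was lost in 11 of 32 other settings, 10 of them leaving out 1 library. After progesterone 0 of 14 differed between genotypes, where 19.4% of tested genes were called, with 1 at an unadjusted p under 0.05.

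Of all tested genes, 7.84% were called higher and 15.1% lower for progesterone in floxed uteri. Of the 14, 0 rose there and 1 fell, with 1 at an unadjusted p under 0.05. It was Tm7sf2, a sterol reductase gene, which fell by 0.56 (adjusted p = 0.0193), a call lost in 6 of 32 other settings, among them without floxed progesterone library 1, 7 or 9 (−0.49 to −0.46). In knockouts 0 of the 14 passed, where 8.67% of tested genes were called, with 0 at an unadjusted p under 0.05. The difference in response was called for 0 of 14, where 2.49% of tested genes were called, with 0 at an unadjusted p under 0.05.

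Of 6 genes that control the pathway, 1 was called in each treatment. This was Scap, the escort of the SREBP proteins, lower in knockouts both times. Of all tested genes 11.5% were called lower after vehicle and 7.06% after progesterone. Scap was 16.6 to 24.4 RPKM in floxed and 13.4 to 16.3 RPKM in knockout vehicle libraries, without overlap, a log2 fold change of −0.43 ± 0.07 (adjusted p = 3.19e-05). After progesterone it was −0.54 (adjusted p = 0.000213), again without overlap, at 17.7 to 21.6 against 13.1 to 14.5 RPKM. Srebf1 and Srebf2 did not pass between genotypes after vehicle (−0.27, adjusted p = 0.227, and −0.36, adjusted p = 0.145) or after progesterone (−0.11, adjusted p = 0.761, and −0.23, adjusted p = 0.560). After vehicle both passed without floxed vehicle library 1a (−0.40, adjusted p = 0.0300, and −0.47, adjusted p = 0.0434). Srebf2 also passed without knockout vehicle library 11a (−0.46, adjusted p = 0.0466). With any 1 library left out Srebf1 ran from −0.40 to −0.15 and Srebf2 from −0.47 to −0.26. Adjusted p reached 0.463 for Srebf1 and 0.287 for Srebf2. For progesterone, Srebf2 was at −0.56 in floxed (adjusted p = 0.0846) and −0.44 in knockout uteri (adjusted p = 0.281), and Srebf1 at −0.29 (adjusted p = 0.331) and −0.14 (adjusted p = 0.751). The Srebf2 value in floxed uteri passed in 5 of 32 other settings, among them the mixed batch alone (−0.56, adjusted p = 0.0112).

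Genes of cholesterol uptake and transport went both ways. Of 10, 4 were higher and 1 lower in knockouts after vehicle, where 13.1% of tested genes were called higher and 11.5% lower. Lipa, the lysosomal acid lipase that frees cholesterol from taken-up lipoprotein, was 9.57 to 16.8 RPKM in floxed and 18.2 to 26.9 RPKM in knockout libraries, without overlap (0.67, adjusted p = 3.06e-05). Npc1, which exports that cholesterol from lysosomes, was 8.31 to 11.8 against 12.04 to 15.5 RPKM, also without overlap (0.50, adjusted p = 2.32e-05). Its partner Npc2 (0.31, adjusted p = 0.0123, but 0.161 in the mixed batch alone and 0.0715 without floxed vehicle libraries 12 and 1a) and the HDL receptor gene Scarb1 (0.51, adjusted p = 0.0038) were higher too, and Vldlr, a lipoprotein receptor gene named after its values were seen, was lower (−0.26, adjusted p = 0.0479, lost in 22 of 32 other settings). After progesterone 2 of 10 were higher in knockouts and 0 lower, where 12.3% of tested genes were called higher. They were Npc1 (0.57, adjusted p = 0.000464, lost in 1 of 32 other settings) and Npc2 (0.38, adjusted p = 0.0367, lost in 9 of 32 other settings). Among settings other than single libraries left out, the Npc2 value fell as low as 0.0067, with adjusted p of up to 0.98. Abcg1, a cholesterol exporter gene, was the 1 of 8 efflux and storage genes called, at 0.34 (adjusted p = 0.0353, lost in 12 of 31 other settings) after vehicle and 0.58 (adjusted p = 0.0144, lost in 4 of 31) after progesterone. Of all tested genes 13.1% and 12.3% were called higher in these 2 comparisons. Leukocyte markers were higher in these same knockout libraries, as given above, and their part in the values of the lysosomal and exporter genes was not tested.

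In floxed uteri 3 of 10 uptake and transport genes fell after progesterone and 0 rose, where 15.1% of tested genes were called lower. They were Stard4, a sterol carrier gene (−0.67, adjusted p = 0.0241), Npc1 (−0.29, adjusted p = 0.0352, lost in 8 of 32 other settings) and Vldlr (−0.34, adjusted p = 0.0493, lost in 21 of 32). The Stard4 value rested on floxed progesterone library 1, the lowest at 2.82 RPKM, without which it was −0.35 (adjusted p = 0.121), and the call was lost in 4 of 32 other settings in all. No uptake, control or efflux gene passed for progesterone in knockouts, where 8.67% of tested genes were called. An unadjusted p under 0.05 was found for 3 uptake genes, 0 control genes and 1 efflux gene. None of these genes passed for the difference in response, where 2.49% of tested genes were called. For that difference 1 efflux gene had an unadjusted p under 0.05, and Srebf1 was at 0.15 (adjusted p = 0.871) and Srebf2 at 0.13 (adjusted p = 0.915).

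**Figure D4:**
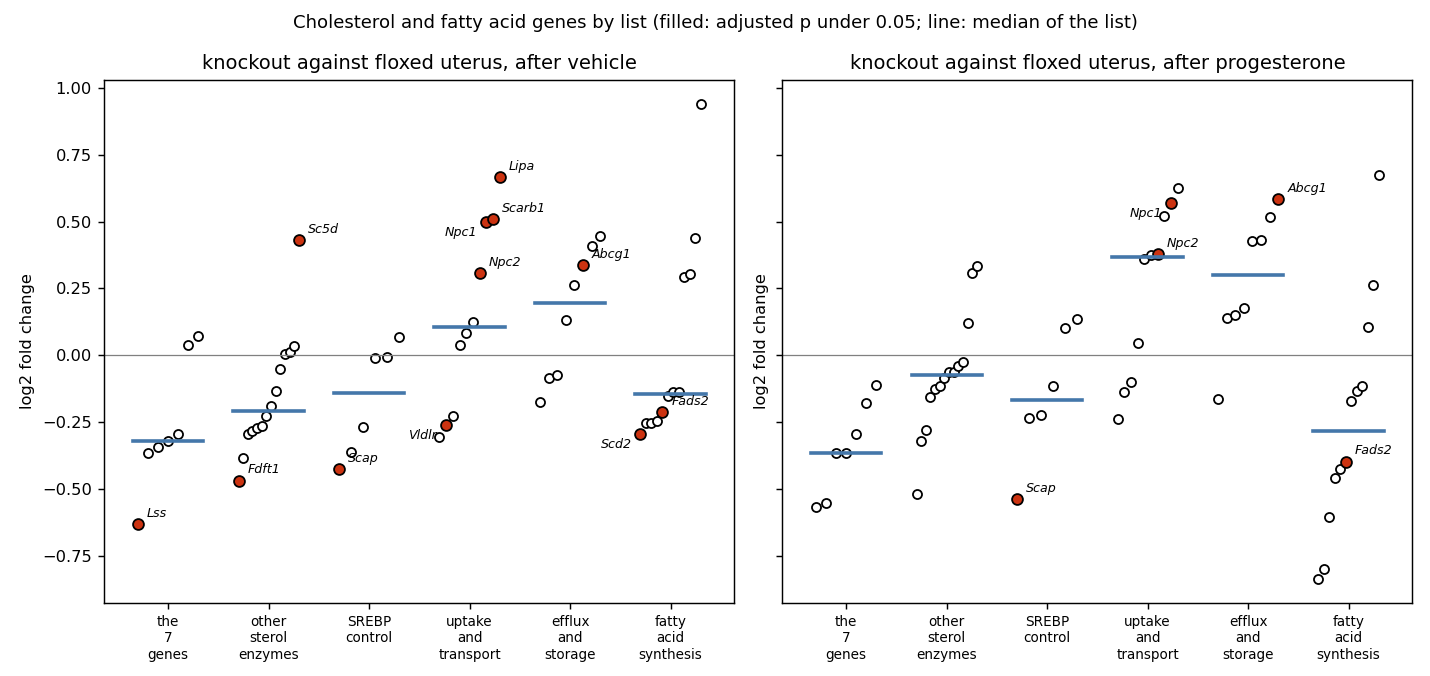
Log2 fold changes of knockout against floxed uteri for the 7 genes and 5 lists of related genes, after vehicle on the left and after progesterone on the right, with 1 point per gene ordered by value within its list. Filled points passed an adjusted p of 0.05 and are named, and blue lines are list medians, −0.32 and −0.37 for the 7 genes. Scap stands lowest of the control genes in both panels, and the called uptake and transport genes lie above 0 apart from Vldlr.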

How the data were processed

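The deposited values are gene-level RPKM that the authors had corrected for batch, a score that is neither plain RPKM nor counts: 6.66% of its values lie below 0, and vehicle means of both batches were equal (relative tolerance 0.0001) for 13669 of 13669 genes with a mean above 1, so the correction added a constant per gene and batch. Such a constant alters ratios, most in low genes. No value of the 7 genes was below 0. RNA came from Trizol extracts cleaned with DNase and went into Truseq libraries, per the labels' protocols. The build mm10 and the tools cutadapt 2.7, TopHat and Partek stand in the submitters' processing notes. How reads were counted and the batches corrected was not given in the sources used here. At the outset the design had expected uncorrected RPKM, and the planned test was used.

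Values below 0 were set to 0 and log2(RPKM + 0.5) was fitted in R 4.3.3 by limma 3.58.1 (robust eBayes with a mean-variance trend) over 4 group means and a batch term, on the 14284 genes that reached 1 RPKM in 4 or more libraries (19 residual degrees of freedom, median prior 3.34). Fold changes are on that scale, which understates changes of low genes such as Idi1. Errors of fold changes are SE. Tests were two-sided, Benjamini-Hochberg adjusted at 0.05 over all tested genes. Correlations used exact permutation (scipy 1.17.1), two-sided. Libraries 1a and 1b differed more than the closest pair across batches, as did 11a and 11b. This cannot show whether they come from separate animals, and each was counted as a sample without that being known. The fits were tested on simulated data. Coordinates are GENCODE M21 (GRCm38), promoters RefSeq (GRCm38.p6).

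The 7 genes and the lists were chosen with earlier results of these data known. From each list on cholesterol or fatty acids, up to 4 called genes per comparison with the smallest adjusted p are named, with Srebf1, Srebf2 and Ctcf. For likeness to the 7 genes, names come from the 8 highest r and from the lowest r of some lists. Some genes of these lists and rules are not reported here and are left out of the counts by list. Alternatives were a pseudocount of 0.1, no filter, a filter at 5 RPKM, quantile normalization, the mixed batch alone, the numbers as a block, and omission of single libraries, of the 5 with oviduct or squamous markers, and (chosen after seeing the data) of floxed vehicle libraries 12 and 1a.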

Additional observations from a re-analysis of the deposited data

Results flagged for a closer look

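Among 40 groups of values examined (the 7 genes, Ctcf, Srebf1 and Srebf2 in each of 4 groups), 5 held a library set apart from the rest of its group by a wide gap. Chance flags about 1 in 20 independent groups, which these are not: the 7 genes vary together, and 3 of the 5 cases are the same library. Floxed vehicle library 12 stood apart for Sqle at 45.0 RPKM (the next was 22.03), for Cyp51 at 24.8 RPKM (next 13.3) and for Dhcr7 at 16.9 RPKM (next 12.6). Without this library and library 1a, an alternative chosen after seeing the data, 1 of the 7 genes was called between genotypes after vehicle, as with them. Knockout progesterone library 6 stood apart for Idi1 at 1.51 RPKM (next 1.27) and for Srebf2 at 20.5 RPKM (next 19.0), gaps that are small in RPKM because the other 3 libraries were close together.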

How the results depend on the processing

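Of 35 values (7 genes in 5 comparisons), recomputed in up to 32 settings, 1054 of 1115 kept direction and side of the threshold, 9 passed that had not, 0 were lost and 52 changed sign, all of the last in values that had not passed. Idi1 was below the filter at 5 RPKM. With the replicate block 4 members were called between genotypes after vehicle: Lss, Hmgcs1 (−0.75, adjusted p = 0.0186), Dhcr7 (−0.58, adjusted p = 0.0269) and Insig1 (−0.73, adjusted p = 0.00606). With the block, called genes numbered 822 between genotypes after progesterone, 162 for progesterone in knockouts and 26 for the difference in response, and it moved no other count by over 1.5 times. Whether the numbers pair libraries is not settled: deviations of 11 same-numbered pairs correlated from −0.342 to 0.544 (median 0.127, 6 of 11 over 0.1), against a median of 0.0133 for other pairs. The filter at 5 RPKM gave 2293 called genes between genotypes after vehicle and 236 for the difference in response. Without the 5 libraries with oviduct or squamous markers there were 2022 for progesterone in floxed uteri, 383 in knockouts and 176 for the difference, and without floxed vehicle 12 and 1a 693 for the difference. The mixed batch alone called 1 member (Lss) after progesterone. Leaving out single libraries gave 1 to 3 members between genotypes after vehicle, 0 to 1 after progesterone and 0 to 1 for progesterone in floxed uteri. It gave 3099 to 3812, 2129 to 3242, 2374 to 4099, 863 to 1339 and 204 to 715 called genes in the 5 comparisons, the last 204 without knockout progesterone 5, 236 without floxed progesterone 9 and 715 without floxed vehicle 12. Under quantile normalization the calls between genotypes after progesterone split into 1470 higher and 1319 lower (1758 and 1009 as reported), and those for progesterone in floxed uteri into 1395 and 1608 (1120 and 2160). Signs turned with the block for Sqle (−0.50) and Cyp51 (−0.52) between genotypes after vehicle, Idi1 (0.13) and Lss (0.32) for progesterone in knockouts, and Hmgcs1 (0.055), Sqle (0.088), Idi1 (0.27), Dhcr7 (0.18) and Srebf1 (−0.29) for the difference. Without the 5 libraries they turned for Sqle (−0.12) and Cyp51 (−0.034) after vehicle, Lss (0.090) in knockouts and Dhcr7 (0.029) for the difference. Under quantile normalization the sign turned for Lss (0.021) in knockouts. Without single libraries, ranges that crossed 0 were, between genotypes after vehicle, −0.12 to 0.26 (Sqle) and −0.085 to 0.26 (Cyp51), and after progesterone −0.38 to 0.026 (Sqle) and −0.31 to 0.049 (Cyp51). For progesterone they were −0.24 to 0.043 (Hmgcs1), −0.38 to 0.022 (Idi1) and −0.26 to 0.10 (Cyp51) in floxed uteri, and −0.10 to 0.073 (Lss) in knockouts. For the difference they were −0.20 to 0.083 (Hmgcs1), −0.38 to 0.024 (Idi1), −0.038 to 0.25 (Lss), −0.25 to 0.029 (Dhcr7) and −0.046 to 0.16 (Insig1). The cause of these shifts was not tested. Of 21 called values of related genes, 6 kept their call in every setting (Scap in both treatments, Scarb1, Npc1 and Lipa after vehicle, and Fads2 for progesterone in floxed uteri) and 0 changed sign. Members had SE of 0.13 to 0.39 between genotypes, which limits what could be called, while depth was at least 29900000 reads.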

Other observations

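Fatty acid synthesis, the other branch that SREBP proteins govern, was not described above. Of 12 such genes, 2 were lower in knockouts after vehicle and 0 higher, where 11.5% of tested genes were called lower and 13.1% higher. They were the desaturase genes Scd2 (log2 fold change −0.29, adjusted p = 0.00729) and Fads2 (−0.21, adjusted p = 0.0267). The Scd2 call was lost in 2 of 32 other settings, among them the mixed batch alone (−0.18, adjusted p = 0.265), and the Fads2 call in 6 of 32, with adjusted p of up to 0.0983. After progesterone 1 of 12 was lower in knockouts and 0 higher, where 7.06% of tested genes were called lower. It was Fads2 (−0.40, adjusted p = 0.00588, lost in 1 of 32 other settings). Progesterone raised 1 of 12 in floxed uteri, again Fads2 (0.37, adjusted p = 0.00561), where 7.84% of tested genes were called higher. In knockouts 0 of 12 passed for progesterone, where 8.67% of tested genes were called, with 1 at an unadjusted p under 0.05. For the difference in response 0 of 12 passed, where 2.49% of tested genes were called. The list's median was −0.15 between genotypes after vehicle, against −0.01 over all tested genes. Scd1, a desaturase gene also abundant in fat and named after its values were seen, differed between genotypes by 0.10 within the mixed batch and by 1.79 within the vehicle-only batch. In the vehicle-only batch summed fat markers were 2.44 and 2.93 RPKM in floxed libraries 1a and 12, and their part in this value was not tested.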
